A study of Mus musculus with 6 samples.

Results

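The SNARE fusion machinery is the set of proteins that merge transport vesicles with their target membranes. Its genes were taken from the deposited symbols by name: every numbered syntaxin (Stx), syntaxin-binding protein (Stxbp) and vesicle-associated membrane protein (Vamp), the SNAP-25 family, the Golgi, endoplasmic reticulum and endosomal SNAREs Vti1a, Vti1b, Gosr1, Gosr2, Bet1, Bet1l, Use1 and Ykt6, and the disassembly factors Nsf, Napa, Napb and Napg. This gave 46 of the 24421 symbols. They were measured by RNA sequencing in liver sinusoidal endothelial cells (LSECs), the fenestrated lining of the liver's smallest vessels, prepared from mice of wild genotype with beads against the endothelial surface protein CD146. All cells sat overnight on collagen I and were then kept without serum for 6 h. The 3 pressure samples then spent 8 h under hydrostatic pressure that swung from 101 to 135 kPa, given as absolute pressure, at a frequency of 0.01 Hz. The 3 control samples carry no label for those hours, so handling and culture time cannot be told apart from pressure.

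A SNARE complex forms when an R-SNARE, usually on the vesicle, zips together with Qa, Qb and Qc SNAREs on the target membrane and pulls the membranes into contact. Qa SNAREs are the syntaxins proper, and proteins of the SNAP-25 family supply the Qb and Qc parts in a single chain. Sec1/Munc18 (SM) proteins, several of them named Stxbp, clasp syntaxins and guide assembly. After fusion the ATPase NSF, held in place by SNAP adaptors, pulls the spent complex apart for reuse. LSECs are known for rapid endocytosis and receptor recycling, and endothelium also secretes stored Weibel-Palade bodies, both of which run on this machinery.

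The promoter stretches of 4 members are shown first, because these genes carry the changes described next: Stx2, Bet1 and Vamp5 had the largest falls, and Stx11 had the second largest rise. They were read from RefSeq (GRCm38.p6), run 5′ to 3′ on the gene's own strand, and hold only bases upstream of annotated exons. Capitals mark motif matches on either strand: the GC box (GGGCGG, or CCGCCC on the other strand), the CCAAT box (CCAAT) and the ETS core (CCGGAAG, or CTTCCGG).
Stx2, chr5:129008575-129008822, minus strand: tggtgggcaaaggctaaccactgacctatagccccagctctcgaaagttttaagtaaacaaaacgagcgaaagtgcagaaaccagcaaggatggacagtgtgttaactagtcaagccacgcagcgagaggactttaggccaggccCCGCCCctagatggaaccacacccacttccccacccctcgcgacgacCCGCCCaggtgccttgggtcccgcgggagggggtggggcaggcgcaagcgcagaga
Bet1, chr6:4086973-4087180, minus strand: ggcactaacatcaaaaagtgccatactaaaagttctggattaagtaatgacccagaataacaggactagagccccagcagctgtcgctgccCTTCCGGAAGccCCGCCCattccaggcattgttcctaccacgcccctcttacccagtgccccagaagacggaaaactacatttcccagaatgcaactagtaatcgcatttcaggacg
Vamp5, chr6:72380469-72380718, minus strand: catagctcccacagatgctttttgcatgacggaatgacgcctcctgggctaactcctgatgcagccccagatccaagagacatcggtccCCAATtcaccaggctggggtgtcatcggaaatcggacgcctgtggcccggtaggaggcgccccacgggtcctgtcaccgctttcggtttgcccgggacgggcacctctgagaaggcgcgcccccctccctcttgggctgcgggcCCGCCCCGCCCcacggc
Stx11, chr10:12964299-12964509, minus strand: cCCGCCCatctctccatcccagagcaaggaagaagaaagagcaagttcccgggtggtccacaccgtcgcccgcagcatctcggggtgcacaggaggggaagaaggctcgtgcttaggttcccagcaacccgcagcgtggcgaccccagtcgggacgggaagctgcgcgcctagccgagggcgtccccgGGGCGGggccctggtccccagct
The Stx2 and Stx11 stretches each held 2 GC boxes, the Vamp5 stretch held 2 overlapping GC boxes and 1 CCAAT box, and the Bet1 stretch held 1 GC box and 2 ETS cores that overlap on opposite strands. Stx3, which had the largest rise, is not printed, and the 250 bases before its start held 0 matches to any of the 7 motifs. A second listed Stx2 start, also not printed, had 0 GC boxes and 2 CCAAT boxes in its 250 bases. Untrimmed, the 250 bases of Stx11 held 3 GC boxes, and the member counts that follow use such untrimmed stretches. Of the 38 members with a RefSeq promoter entry, 25 (65.8%) held a GC box in the 250 bases before a start, against 35.4% of all 27025 genes. A member with more than 1 listed start was counted if any of them had a match. The 27025 genes were not limited to those expressed in these cells, so the 2 sets are unlike. The GC box was found in 6 of 9 members called higher and 11 of 16 called lower. A CCAAT box was found for 39.5% of the members and 37.5% of all genes, and an E-box (CACGTG) for 13.2% and 6.86%. The ETS core was found for 7.89% of the members and 7.83% of all genes, and the CRE (TGACGTCA) for 5.26% and 1.77%. The AP-1 letters TGANTCA were found for 1 member (2.63%) and 7.82% of all genes, and the ATF4 composite letters TGATGNAA for 0 of 38 members and 3.91% of all genes. These matches describe letters, and the motifs were chosen after values were seen.

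Depth was 12922959 to 18655749 deposited counts a library. Counts of the 46 members made up 0.285%, 0.286% and 0.292% of the control libraries and 0.228%, 0.237% and 0.239% of the pressure libraries, so the groups did not overlap. These are shares of unscaled library totals. On library totals the median log2 fold change was -0.28 over the tested members and -0.23 over all 12892 genes tested. Pressure sample 3 stood apart, with correlations of log CPM to the other pressure samples of 0.987 and 0.989, where these correlated at 0.994. Nothing in the labels ties the samples of a group to separate mice or cultures, and the tests therefore speak only to the variation among these 6 libraries, which could be technical. Of 11 LSEC markers 0 were called higher and 8 lower, beside 33.7% and 35.1% of all 12892 genes tested. Lyve1, Gata4 and Dnase1l3 were not called (log2 fold changes 0.17, 0.14 and -0.18). The summed level of the LSEC markers went from 5411 to 5568 CPM in controls to 3160 to 3486 under pressure. Its largest parts were Stab1, Fcgr2b and Mrc1, at 1498, 1090 and 966 CPM in controls. The macrophage and Kupffer cell markers, 12 of 12 measured, summed to 7072 to 7653 CPM in controls and 6606 to 7151 under pressure, with 2 called higher and 2 lower. Macrophage marker transcripts were therefore abundant in both groups of these CD146-selected cells. The 6 dendritic cell markers summed to 45.0 to 51.1 CPM in controls and 26.5 to 29.5 under pressure. That gap was mostly Clec9a (19.5 and 1.43 CPM), while Zbtb46 and Itgax were not called and Xcr1 was called higher (0.281 and 1.16 CPM). The 8 hepatocyte markers summed to 7.40 to 10.5 and 14.3 to 17.8 CPM, mostly Alb (6.40 and 12.1), with 2 called higher. The 5 cholangiocyte markers summed to 5.22 to 5.28 and 9.22 to 12.1 CPM, mostly Spp1 (3.37 and 6.95), with 3 called higher. The 8 general endothelial markers summed to 4810 to 5199 CPM in controls and 4720 to 5556 under pressure, with 2 called higher and 4 lower. The 9 stellate and smooth muscle markers summed to 154 to 166 and 171 to 187 CPM, with 1 called higher (Dcn, 104 and 132 CPM) and 2 lower (Des and Acta2, log2 fold changes -1.24 and -1.16). Markers of T and NK cells, B cells and platelets each summed to under 11 CPM in every library. Neutrophil markers stayed at or under 1.31 CPM in sum, with 3 of the 6 listed at 0 in every library. In bulk RNA a drop in the number of cells of a type and a drop in RNA per cell cannot be told apart, and the part of these shifts in the results was not tested.

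Among 39 members with enough counts to test, 9 rose and 17 fell under pressure at an adjusted p below 0.05 (edgeR quasi-likelihood test, two-sided, adjusted over 12892 genes), and 13 did not pass. The 26 called members are 66.7% of those tested, where 68.8% of all genes tested were called, a share near that background. With TMM scaling 23.1% of members rose, against 33.7% of all genes, and 43.6% fell, against 35.1%, a difference that was not tested. RLE factors gave 12 rises and 17 falls among the members, and upper-quartile factors 7 and 18. With library totals in place of TMM scaling, 6 rose and 21 fell, against 24.3% and 45.7% of all genes. That scaling moved the median log2 fold change of all genes by -0.21, so changes are relative to the scaling. Changes of 2-fold or more were called for 8 members, 20.5% beside 23.3% of all genes. These were 7 falls, among them Vamp5, Stx2, Bet1, Stx4a, Snap47 and Stxbp4, and 1 rise (Stx3). The control and pressure samples did not overlap for 30 of the 39, or 76.9%, against 71.9% of all genes. Counts by role and gaps between groups given below stand beside these shares over all genes. The median log2 fold change was -0.06 over the members and -0.02 over all genes. Without pressure sample 3, 11 members rose and 18 fell.

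**Figure D1:**
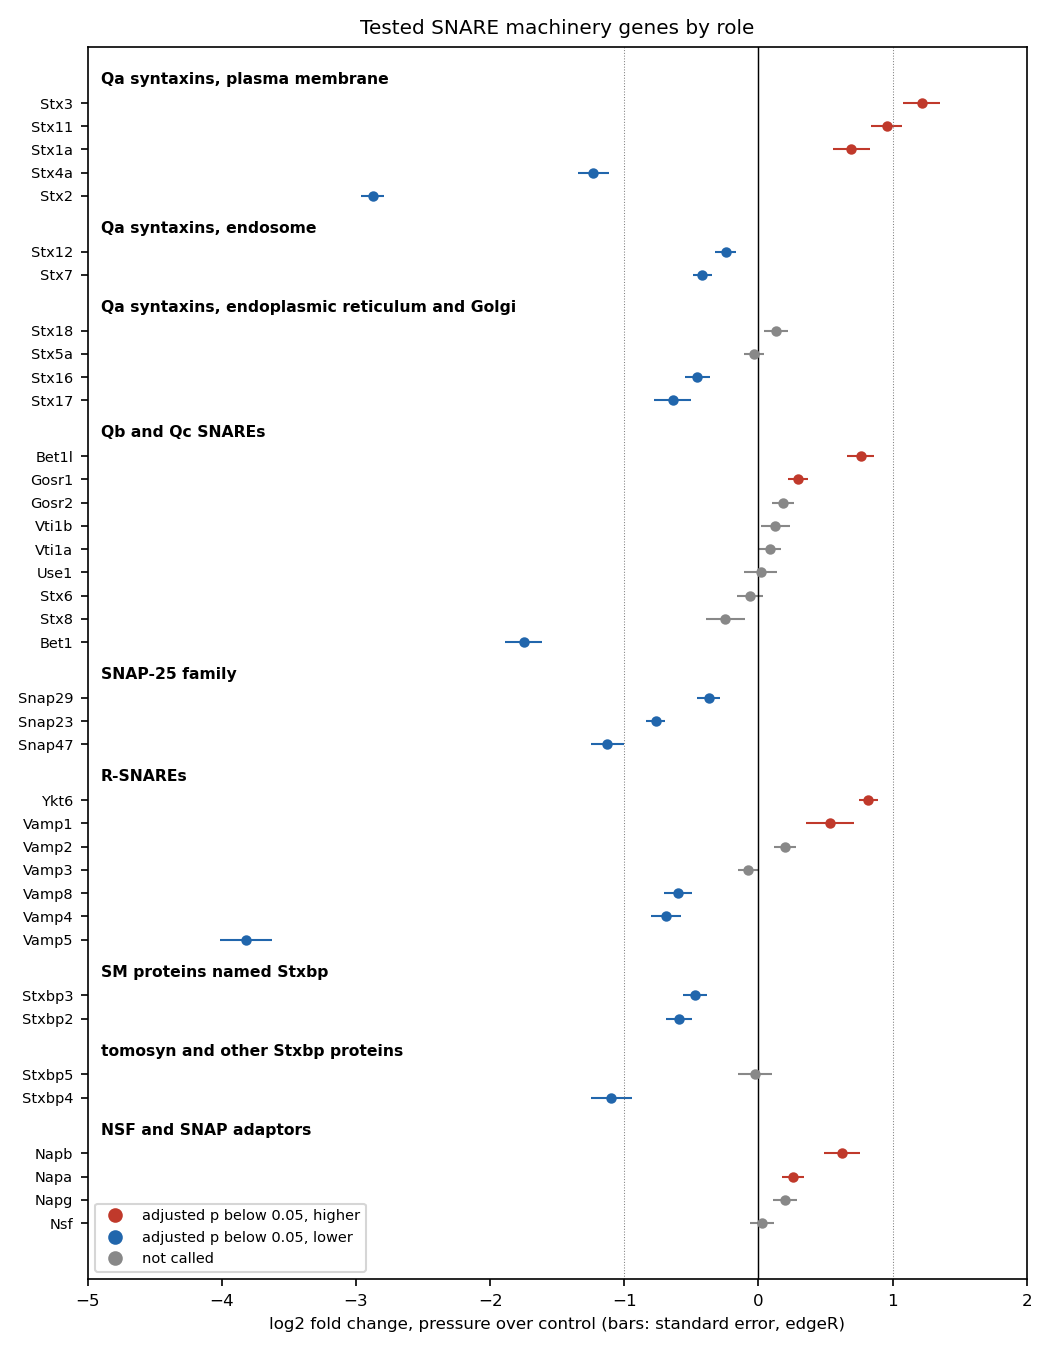
Log2 fold change of pressure over control for 38 of the 39 tested members, ordered by role. Points are estimates and bars their standard errors from edgeR, red and blue mark members called higher and lower, and grey marks those not called; Vamp5 lies farthest to the left at -3.82 and Stx3 farthest to the right at 1.22.

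Plasma membrane syntaxins changed in opposite directions. All 5 tested members were called, beside 68.8% of all genes tested: Stx2 and Stx4a fell, and Stx3, Stx11 and Stx1a rose. Stx2 (chr5:128984557-129008574 in GRCm38, minus strand, protein coding), a surface syntaxin also known as epimorphin, lay at 113, 103 and 110.1 CPM in the controls and at 14.5, 14.6 and 15.5 under pressure. It fell 7.34-fold (log2 fold change -2.88 ± 0.0857 SE, edgeR adjusted p = 1.68e-08), and within each group its samples were nearly level. Stx4a (chr7:127824294-127849019, plus strand), whose product serves surface exocytosis including that of endothelial granules, read 108, 115 and 107 CPM in controls. Under pressure it read 38.4, 47.5 and 54.9 CPM, a 2.35-fold fall (log2 fold change -1.23 ± 0.117 SE, edgeR adjusted p = 6.58e-06). All pressure samples were far below every control.

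Stx3 (chr19:11775118-11819403, minus strand) encodes a syntaxin of apical and granule membranes. Controls held 86.2, 75.5 and 91.0 CPM and pressure samples 220.1, 216 and 151. The rise was 2.32-fold (log2 fold change 1.22 ± 0.138 SE, edgeR adjusted p = 2.2e-05). Pressure sample 3 was the lowest of its group and still above all controls. Stx11 encodes a lipid-anchored syntaxin known from secretory granules of cytotoxic lymphocytes. It went from 20.9, 22.0 and 24.0 CPM to 37.2, 44.1 and 48.5 (log2 fold change 0.96 ± 0.114 SE, edgeR adjusted p = 3.11e-05), again without overlap. Stx1a, the neuronal surface syntaxin, stayed low and rose from 5.58 ± 0.329 to 9.07 ± 1.07 CPM (mean ± SD, n = 3; log2 fold change 0.69). Stx19, another surface syntaxin, was too low to test, with 1 count in each group.

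Per kilobase of exon, the family's sum went from between 91.9 and 92.7 CPM per kb in controls to between 68.1 and 74.4 under pressure. Its make-up changed with it. Stx4a supplied 50.3% ± 2.32 of that sum in controls and 28.03% ± 5.59 under pressure (mean ± SD, n = 3 here and in the next shares). Stx2 supplied 25.7% ± 1.06 and 4.57% ± 0.350. Stx3 supplied 16.3%, 14.4% and 17.2% in the control samples and 54.7%, 50.7% and 38.8% in the pressure samples, so per length the largest share belonged to Stx4a in every control sample and to Stx3 in every pressure sample. In plain CPM, not divided by exon length, Stx2 and Stx4a held 32.9% and 33.2% of the control sum. Stx11 went from 5.74% ± 0.389 to 14.5% ± 2.21. Shares of a sum are tied to each other, and the exact two-sided permutation test of each gave p = 0.1, the smallest that 3 against 3 samples allow. Restricting the sum to the surface syntaxins was chosen after the data were seen.

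**Figure D2:**
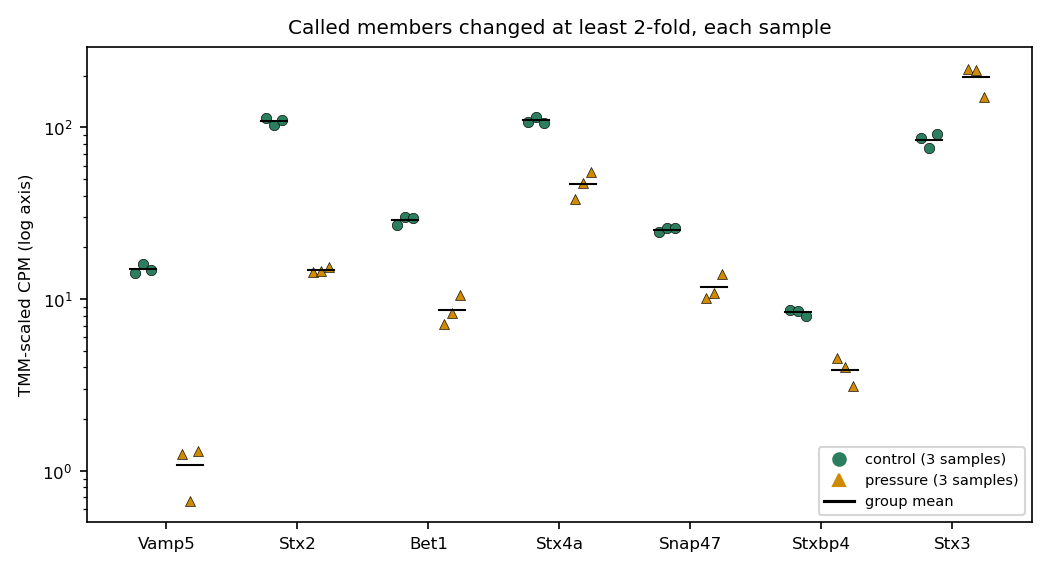
TMM-scaled CPM (log axis) in each of the 6 samples for 7 of the 8 called members changed at least 2-fold; circles are control samples, triangles pressure samples and lines the group means. The 3 pressure points of Stx2 sit at 14.5 to 15.5 CPM and its control points at 103 to 113.

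Both endosomal syntaxins fell by small amounts. Stx7, of late endosomes, read 141, 145 and 144 CPM in controls and 109, 105 and 108 under pressure (log2 fold change -0.42 ± 0.0693 SE, edgeR adjusted p = 0.000326). Stx12, of recycling endosomes, read 125, 122 and 128 against 106, 111 and 99.3 CPM (log2 fold change -0.24 ± 0.0754 SE, edgeR adjusted p = 0.0139). Neither gene's groups overlapped. Stx12 did not pass at a threshold of 0.01 nor without control sample 3 (edgeR adjusted p = 0.0542).

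Of the endoplasmic reticulum and Golgi syntaxins, 2 of 4 fell and 0 rose, and with library totals 3 fell. Stx5a, the syntaxin of transport into and through the Golgi and the best expressed of these per length, read 73.5, 72.4 and 72.6 CPM in controls and 67.8, 74.3 and 71.2 under pressure. Its groups overlapped (log2 fold change -0.03, edgeR adjusted p = 0.693). Stx17, the syntaxin of autophagosomes that fuse with lysosomes, fell from 30.3 ± 1.94 to 19.5 ± 3.85 CPM (log2 fold change -0.64, edgeR adjusted p = 0.00175). Stx16, of traffic from endosomes to the trans-Golgi, fell from 43.3 ± 3.62 to 31.5 ± 1.11 CPM (log2 fold change -0.46). Stx18, of Golgi-to-reticulum return, was at 22.9 ± 0.632 and 25.0 ± 1.14 CPM and was not called. On the opposite strand, annotated exons of Nsg1 cover 12.5% of its exonic length and those of Gm42858, not among the deposited symbols, cover 19.8%.

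The Qb and Qc SNAREs of these inner membranes were mostly not called: 2 of 9 rose, 1 fell and 6 did not pass, and with library totals 1 rose and 3 fell. Bet1 (chr6:4076899-4086972, minus strand), a Qc SNARE of transport from the reticulum to the Golgi, read 27.1, 30.03 and 29.7 CPM in controls. Under pressure it read 7.17, 8.27 and 10.6, a 3.37-fold fall (log2 fold change -1.75 ± 0.136 SE, edgeR adjusted p = 1.68e-06). Its close relative Bet1l, a Qc SNARE within the Golgi, moved the other way, from 28.6, 31.9 and 33.8 to 50.3, 50.5 and 59.4 CPM (log2 fold change 0.76 ± 0.101 SE, edgeR adjusted p = 6.72e-05). The groups of neither gene overlapped, and the difference between these changes was not tested. Exons of Gm45785 on the same strand cover 9.11% of Bet1l's exonic length, and those of Ric8a on the opposite strand cover 9.87%. Neither Gm45785 nor Ric8a is among the deposited symbols. Gosr1, a Golgi Qb SNARE, rose from 79.7 ± 4.92 to 97.7 ± 2.49 CPM (log2 fold change 0.29), a call that was lost with library totals. Gosr2, the Qb partner of Bet1, was at 139 ± 1.02 and 157 ± 14.4 CPM (log2 fold change 0.18, edgeR adjusted p = 0.0724, or 0.0137 without pressure sample 1).

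Vti1b, a Qb SNARE of late endosomes, had the highest level per length of this role. It read 75.9, 82.2 and 75.9 CPM in controls and 77.3, 78.0 and 100.5 under pressure, and only pressure sample 3 stood above the controls (log2 fold change 0.13, edgeR adjusted p = 0.315). Its exons overlap Arg2 on the opposite strand over 17.7% of their length, and Arg2 was at 7.17 CPM in controls and 13.3 under pressure. Vti1a, Use1, Stx6 and Stx8 had log2 fold changes of 0.08, 0.02, -0.06 and -0.25. None of these 4 was called with TMM scaling, while Stx6 and Stx8 were called lower with library totals (edgeR adjusted p = 0.0305 and 0.0187). Without pressure sample 3, Stx8, a late endosomal Qc SNARE, had a log2 fold change of -0.40 (edgeR adjusted p = 0.00185).

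All 3 tested members of the SNAP-25 family fell, where 35.1% of all genes tested were called lower. Snap23, the widely expressed surface member, read 167, 171 and 179 CPM in controls and 102, 103 and 98.7 under pressure (1.70-fold, log2 fold change -0.77 ± 0.0716 SE, edgeR adjusted p = 5.73e-06). Snap29, which acts on inner membranes and autophagosomes, read 124, 117 and 137 against 97.4, 103 and 91.04 CPM (log2 fold change -0.37 ± 0.0859 SE, edgeR adjusted p = 0.0028). Snap47 (chr11:59407134-59451186, minus strand), a less studied relative, read 24.5, 25.8 and 25.97 against 10.2, 10.9 and 14.1 CPM (2.18-fold, log2 fold change -1.13 ± 0.125 SE, edgeR adjusted p = 1.95e-05). In each of these genes every pressure sample was below every control sample. Exons of Jmjd4 on the opposite strand cover 11.6% of Snap47's, and Jmjd4 itself was at 16.6 CPM in controls and 31.3 under pressure. Snap25, the neuronal founder, had 0 counts in all controls and 2, 0 and 0 under pressure.

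Per length the family summed to between 83.5 and 91.2 CPM per kb in controls and between 54.7 and 57.9 under pressure. Within that smaller sum Snap29 went from 42.3% ± 1.48 to 50.1% ± 1.66, Snap23 from 46.6% ± 1.01 to 42.0% ± 0.576, and Snap47 from 11.1% ± 0.473 to 7.90% ± 1.57 (mean ± SD, n = 3). The exact permutation p was 0.1 for each, the smallest possible.

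R-SNAREs divided, with 2 of 7 tested members rising and 3 falling, or 1 and 4 with library totals. Vamp5 (chr6:72368794-72380468, minus strand), a surface R-SNARE known from muscle and endothelium, read 14.1, 16.0 and 14.8 CPM in controls and 1.25, 0.669 and 1.31 under pressure. These stand for 283, 300 and 224 deposited counts against 20, 11 and 16. The 14.1-fold fall was the largest of any member (log2 fold change -3.82 ± 0.196 SE, edgeR adjusted p = 1.59e-07). Vamp8 (chr6:72385223-72390703, minus strand), an R-SNARE of late endosomes and regulated secretion, lies 4754 bases from Vamp5 and fell less. It read 85.4, 93.6 and 86.1 against 56.2, 51.2 and 67.7 CPM (log2 fold change -0.60 ± 0.105 SE, edgeR adjusted p = 0.000457). Vamp4, of the trans-Golgi, fell from 23.8 ± 0.262 to 14.8 ± 1.89 CPM (log2 fold change -0.69).

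Ykt6, a lipid-anchored R-SNARE of Golgi traffic and autophagosome fusion, rose from 128, 138 and 129 CPM to 238, 223 and 238 (1.77-fold, log2 fold change 0.82 ± 0.0721 SE, edgeR adjusted p = 3.79e-06). The groups were far apart, and Ykt6 went from rank 5 to rank 1 among the 39 members by mean CPM per kb. Vamp3, the cellubrevin of recycling endosomes, held rank 1 in controls. It read 145, 147 and 152 CPM there and 133, 151 and 137 under pressure, with overlap (log2 fold change -0.07, edgeR adjusted p = 0.402). Of the synaptobrevins, Vamp2 was at 26.3 ± 0.664 and 30.1 ± 0.291 CPM (edgeR adjusted p = 0.0576, or 0.046 without pressure sample 3). Vamp1 rose from 2.21 ± 0.209 to 3.19 ± 0.194 CPM (log2 fold change 0.53, edgeR adjusted p = 0.0221). DESeq2 did not call Vamp1 (adjusted p = 0.0953), and edgeR did not without control sample 1, control sample 2 or pressure sample 1 (adjusted p = 0.0857, 0.0702 and 0.0506). Its call was also lost with upper-quartile factors and library totals (edgeR adjusted p = 0.0643 and 0.142), at a threshold of 0.01 and for a change beyond 1.2-fold. Vamp7, the lysosomal longin, was listed at 0 in all 6 libraries and was the 1 member with no matching gene model, so an absent transcript and a failed count cannot be told apart.

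Per length the R-SNARE sum was 147 to 156 CPM per kb in controls and 161 to 168 under pressure, with TMM scaling. The TMM factors were 1.074 to 1.083 in controls and 0.9094 to 0.9457 under pressure. The direction of this small difference therefore depends on the scaling, while shares within the sum do not. Vamp7, at 0 in every library, was not tested and is not in the sum. Ykt6 made up 29.2% ± 0.456 of the sum in controls and 47.7% ± 1.46 under pressure, while Vamp3 went from 33.8% ± 1.14 to 29.7% ± 2.34 and Vamp8 from 25.2% ± 0.645 to 15.4% ± 1.84 (mean ± SD, n = 3). Vamp5 went from 3.65% ± 0.124 to 0.242% ± 0.0765. The exact permutation p was 0.1 for each of these, the smallest possible.

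**Figure D3:**
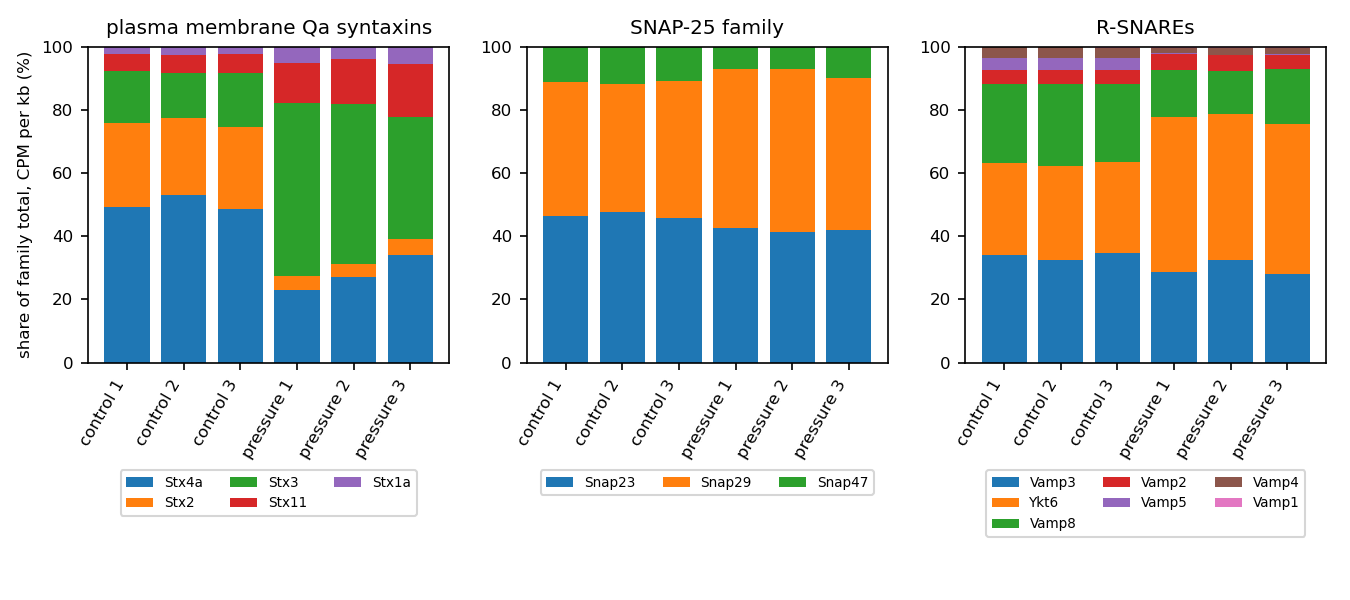
Make-up of the surface syntaxins, the SNAP-25 family and the R-SNAREs in each sample, as percent of the summed CPM per kb of exon of the family's tested members. Vamp7 was not tested and is left out. Stx3 takes 38.8% to 54.7% of the surface syntaxins under pressure and 14.4% to 17.2% in controls.

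The SM proteins named Stxbp all fell, 3 of 3 tested, where 35.1% of all genes tested were called lower. Stxbp2, the partner of Stx11 in granule release, had the highest mean per length of the 3 over all 6 samples, though not over the controls alone. It read 45.8, 46.2 and 41.1 CPM in controls against 27.4, 28.7 and 32.6 under pressure (log2 fold change -0.59 ± 0.0975 SE, edgeR adjusted p = 0.000313). Its groups did not overlap. Stxbp3, the partner of Stx4a, fell from 37.4 ± 2.33 to 26.9 ± 1.34 CPM (log2 fold change -0.47). Stx11 and its partner Stxbp2 thus moved in opposite directions, and Stx4a and its partner Stxbp3 in the same one. Stxbp3-ps, a processed pseudogene, had under 3 counts in every library.

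Of the other syntaxin-binding proteins, Stxbp4 (chr11:90476492-90638084, minus strand), which binds Stx4a, read 8.69, 8.53 and 7.99 CPM in controls and 4.55, 4.01 and 3.11 under pressure (2.14-fold, log2 fold change -1.10 ± 0.155 SE, edgeR adjusted p = 0.000105). The groups were apart. Stxbp5, or tomosyn, which occupies syntaxins and restrains release, read 183, 169.8 and 182 CPM in controls and 208, 177 and 139 under pressure. The pressure samples lay on both sides of the controls (log2 fold change -0.03, edgeR adjusted p = 0.861), and without pressure sample 3 the log2 fold change was 0.12. Stxbp6 had 1.05 to 2.1 deposited counts a library and Stxbp5l at most 3.

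Of the disassembly factors 2 of 4 rose and 0 were called lower. Napa, the alpha-SNAP adaptor, read 172, 177 and 173 CPM in controls and 197, 196 and 232 under pressure (log2 fold change 0.26 ± 0.0828 SE, edgeR adjusted p = 0.0171). The groups did not overlap, but the call was lost with library totals, with upper-quartile scaling and without control sample 1 or 3 (edgeR adjusted p = 0.0708 and 0.0624). Napb, the beta adaptor, rose from 4.28 ± 0.0791 to 6.59 ± 0.416 CPM (log2 fold change 0.62, edgeR adjusted p = 0.00189). Napg, the gamma adaptor, was at 40.5 ± 0.909 and 46.4 ± 3.49 CPM (edgeR adjusted p = 0.0606), and passed without pressure sample 3 (edgeR adjusted p = 0.00856). Nsf, the ATPase itself, was at 73.9 ± 3.91 and 75.2 ± 7.63 CPM (log2 fold change 0.03, edgeR adjusted p = 0.801).

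Genes that work beside the SNAREs were read from lists of tethers, sensors and granule proteins. Over all genes tested 68.8% were called, 33.7% higher and 35.1% lower, and the list counts stand beside these shares. Of the vesicle tethers, 6 were called lower and 2 higher of 9 exocyst subunits, 4 and 2 of 7 in HOPS and CORVET, and 6 and 2 of 12 in COG and GARP. Their median log2 fold changes were -0.34, -0.37 and -0.30, beside -0.02 over all genes. With library totals they were -0.56, -0.58 and -0.51, beside -0.23 over all genes, and 0 of the HOPS and CORVET genes were called higher. Exoc6, a subunit of the exocyst that docks vesicles at the surface, fell from 163 ± 2.89 to 41.0 ± 5.76 CPM (log2 fold change -1.997 ± 0.104 SE, edgeR adjusted p = 1.68e-07). Exoc5 rose from 117 to 202 CPM and Exoc7 fell (log2 fold change -0.81). Vps39, the HOPS subunit that contacts late endosomes, fell from 110.5 to 35.1 CPM (log2 fold change -1.66 ± 0.118 SE, edgeR adjusted p = 9.79e-07), and Vps8 and Vps16 fell with log2 fold changes of -0.73 and -0.56. In COG and GARP, Vps52 and Cog4 fell (-0.90 and -0.74) and Cog3 rose (0.74).

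Calcium sensors and priming factors, 17 tested of 34 listed, had 5 higher and 9 lower and a median log2 fold change of -0.45. Unc13d, the Munc13 priming factor of granule release, fell from 7.38 to 2.04 CPM (log2 fold change -1.85 ± 0.151 SE, edgeR adjusted p = 2.36e-06). Syt17 fell from 4.32 to 0.698 CPM, and Doc2a, a calcium sensor, rose from 11.7 to 23.9. The Weibel-Palade list, 18 tested of 22, had 5 higher and 6 lower, and its median of 0.05 turned to -0.16 with library totals and -0.06 with upper-quartile scaling. Angpt2, a stored angiopoietin, rose from 146 to 365 CPM, while Rab3d, a GTPase of these granules, fell from 12.3 to 2.67 CPM (log2 fold change -2.20 ± 0.137 SE). Unc13d belongs to this list too.

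Among 5 other SM proteins 2 rose and 2 fell: Vps33a, of HOPS, rose from 137 to 201 CPM (log2 fold change 0.55 ± 0.068 SE, edgeR adjusted p = 3.90e-05), Scfd2 rose (0.95) and Vps33b fell (-0.71). Of 4 other SNAREs tested, Sec22b, an R-SNARE of the reticulum, rose from 67.3 ± 3.31 to 94.4 ± 5.09 CPM (log2 fold change 0.49), and Sec22c fell (-1.001). Calls in both directions were thus found in each of the 7 related lists.

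**Figure D4:**
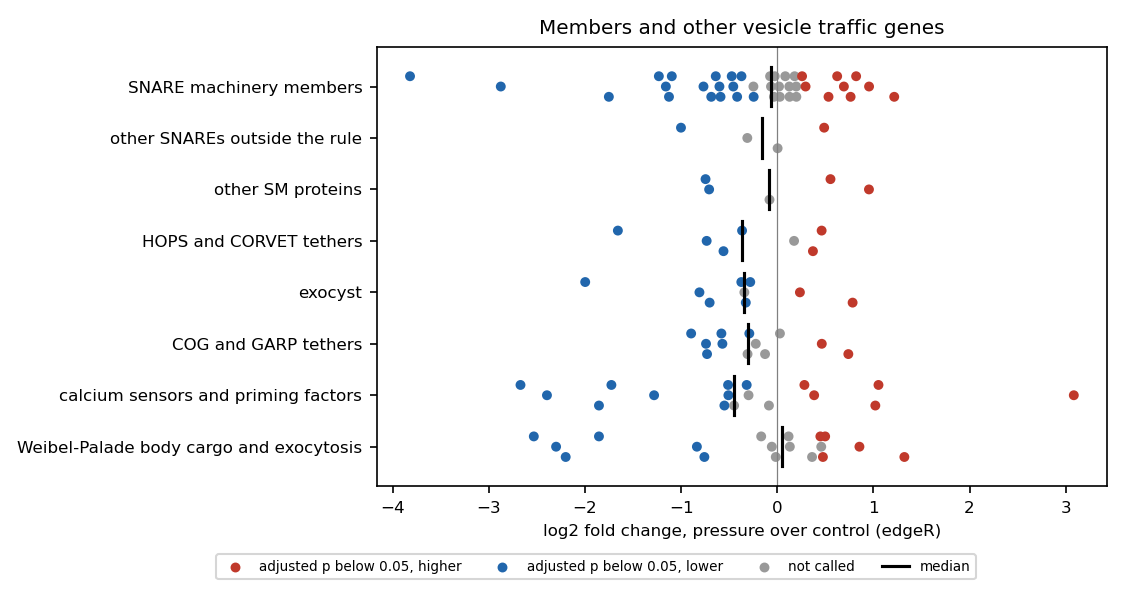
Log2 fold change of pressure over control (edgeR) for each tested gene of the SNARE machinery and of the 7 related lists, where red and blue points are called higher and lower, grey points are not called and black lines are medians. The tether medians lie at -0.30 to -0.37 and that of the SNARE machinery at -0.06.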

How the data were processed

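RNA from 3 control and 3 pressure samples, grouped by the submitters' titles, had been sequenced from stranded mRNA libraries as single reads of 101 bases, per the labels' protocols. The build mm10 and the tools Cufflinks 2.2.1 and TopHat2 2.2.1 are listed per the submitters' processing notes. The annotation, the strand setting and the tool that counted reads were not given in the sources used here. Per symbol, the authors deposited expected counts, that is, estimated read numbers, fractional for 18.2% to 21.7% of detected genes of a library, so genes with near-identical copies or overlapping exons are uncertain.

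Counts were rounded. Genes kept by filterByExpr (minimum count 10, minimum total 15) numbered 12892. TMM factors (1.074 to 1.083 in controls, 0.9094 to 0.9457 under pressure) and edgeR 4.0.16 quasi-likelihood tests in R 4.3.3 were used, two-sided and with no covariate. The p-values were adjusted by Benjamini-Hochberg over all 12892 genes and called below 0.05. A standard error is the log2 fold change divided by the square root of F. CPM per kb used merged exon lengths and gene spans from GENCODE M21 on GRCm38, found for 45 of 46 members. Promoters came from RefSeq (GRCm38.p6) and were printed where the RefSeq start lay within 50 bases of a GENCODE coding-gene start. No pair of libraries within a group agreed within sampling noise (chi-square per degree of freedom at least 2.961). It was 2.961 to 5.818 between controls and 5.196 between pressure samples 1 and 2. Pressure sample 3 gave 23.09 with pressure sample 1 and 16.56 with pressure sample 2.

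Members named by sample were those called with at least a 2-fold change and the best expressed per length in each role; others shown by sample were added after their values were seen. In related lists, up to 3 called genes with the smallest p were named. Some members are counted but not reported here by name. The members and all lists were chosen with earlier results of these data known. Alternatives were RLE and upper-quartile factors, library totals, DESeq2 1.42.0, limma-voom (limma 3.58.1), 2 other filters on low counts, a block for the sample number, stricter thresholds and leaving out each sample. The code was tested on simulated data.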

Additional observations from a re-analysis of the deposited data

How the results depend on the processing

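Of 26 called members, 21 kept their call and direction in all 16 alternative settings that tested them, among them all 8 changed at least 2-fold. The exceptions were Napa, Vamp1, Stx12, Gosr1 and Snap29, the last only when a change beyond 1.2-fold was tested. The number of members called ran from 21 (a change beyond 1.2-fold) to 29 (RLE factors). Leaving out 1 sample gave 24 to 29, with 29 without pressure sample 3. DESeq2 called 25 and limma-voom 26. The members' median log2 fold change moved from -0.06 to -0.18 with upper-quartile factors and -0.28 with library totals, where the scaling itself shifts all genes.

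No called member reversed. With upper-quartile factors the uncalled Nsf (-0.087), Vti1a (-0.030) and Use1 (-0.093) changed sign. With library totals Vamp2 (-0.016), Gosr2 (-0.031), Nsf (-0.19), Vti1b (-0.086), Napg (-0.015), Vti1a (-0.13), Stx18 (-0.084) and Use1 (-0.19) did, and without the low-count filter Use1 (-0.00016) did. Leaving out 1 sample gave log2 fold changes of -0.047 to 0.098 for Nsf, -0.091 to 0.12 for Use1, -0.066 to 0.0014 for Stx5a, -0.17 to 0.12 for Stxbp5 and -0.0045 to 0.19 for Vti1b.

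With the sample number as a replicate block 26 members and 8384 genes were called. Same-numbered samples deviated from their group means with correlations of 0.129, -0.230 and -0.134, so the numbers were not taken as pairs. With a mean of at least 5 CPM required, the calcium sensor and Weibel-Palade lists had 8 and 7 genes called. That filter leaves out listed genes with a lower mean, among them Syt17 of the calcium sensor list, so fewer genes were tested. At a threshold of 0.01 the exocyst had 5, and for a change beyond 1.2-fold it had 4 and HOPS and CORVET 3. In plain CPM the share of Stx2 among surface syntaxins differed by -28.0 points, against -21.1 per length. Few counts stood behind Vamp5 under pressure (11 to 20), and 7 members had too few to test.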
